A study of Schmidtea mediterranea with 2 samples.

Results

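The 100 genes described here were those most enriched, in trunk cells of the planarian Schmidtea mediterranea, in the cells that carried SMESG000029602.1, which is called the marker below. They were chosen in the control library among cells with at least 200 detected genes. Unique molecular identifiers (UMIs, which count captured RNA molecules) were summed over the positive cells, those with at least 5 UMIs of the marker, and over the cells with 0. Both sums were scaled to CPM (counts scaled to a total of 1000000), and the 100 genes with the highest ratio of CPM plus 10 were kept out of 10524 genes with at least 50 UMIs, in a table of 22016 features. The marker itself is 1 of the 100. The members were thus chosen by their levels in positive and 0-UMI cells of the control library. These levels are given as a description, and only the foxA library offers the same measure in cells the rule did not use. The ratio of the rule was 11.4 for SMESG000055717.1, 11.2 for SMESG000011499.1 and 10.7 for SMESG000064381.1, the last genes inside the list, and 10.4 for SMESG000017142.1, 10.1 for SMESG000069149.1 and 9.95 for SMESG000045571.1, the first outside it.

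In the study, animals of the strain CIW4, a clonal asexual line, were given RNA interference (RNAi) against foxA or a control RNAi. Each condition had 1 library, made from the pooled trunks of 50 animals, whose live nucleated cells were sorted and sequenced from the 3′ end in droplets. The target of the control RNAi, the length of the treatment and the age of the animals are not given in the sources used here. The control library held 5978 kept cells with a median of 563 UMIs and the foxA library 6781 kept cells with a median of 904 UMIs, so the foxA library was the deeper. No test between conditions was possible, since neither had a second library, and all differences given are differences between libraries. Each interval is an exact 95% interval of counting error alone, except that of the members' median ratio, which comes from the order of their values. The libraries shared 13 cell barcodes, of which 0 were positive cells in the control library and 2 were positive cells in the foxA library.

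Planarians renew all their tissues from stem cells spread through the body. FoxA proteins are forkhead transcription factors that act in the development of the gut in many animals, and in planarians foxA is known for its role in making the pharynx, the muscular feeding tube of the trunk. Specialised cells often devote a large part of their messenger RNA to the products of a few genes, and in droplet data traces of such abundant RNA are also found in droplets that hold other cells. The files repeat each identifier in place of a gene symbol, so no member has a name or a known role here, no cell type is given to the cells, and the level of foxA was not analysed here.

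The 100 members took up a large share of the RNA of the positive cells in both libraries. In the control library 315 positive cells held 450518 UMIs, of which 139933 came from members, a share of 31.1% (30.9% to 31.2%). The 267 positive cells of the foxA library held 512330 UMIs, of which 155498 came from members, a share of 30.4% (30.2% to 30.5%). Without the marker, which sets the gate, the other 99 members made up 29.0% (28.8% to 29.1%) and 28.1% (28.0% to 28.3%). Single positive cells spread widely around these sums. The members' share ran from 5.07% to 54.6% over control cells, with a median of 32.0% and quartiles of 23.9% and 39.0%. Over foxA cells it ran from 5.49% to 61.2%, with a median of 31.0% and quartiles of 23.7% and 37.6%. The ranges of the libraries thus overlapped almost entirely. The log2 ratio of the summed shares, foxA over control, was -0.033 (-0.044 to -0.023), and it was 0.078 when the 5 most abundant members were left out, so its direction rests on those 5 genes.

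**Figure D1:**
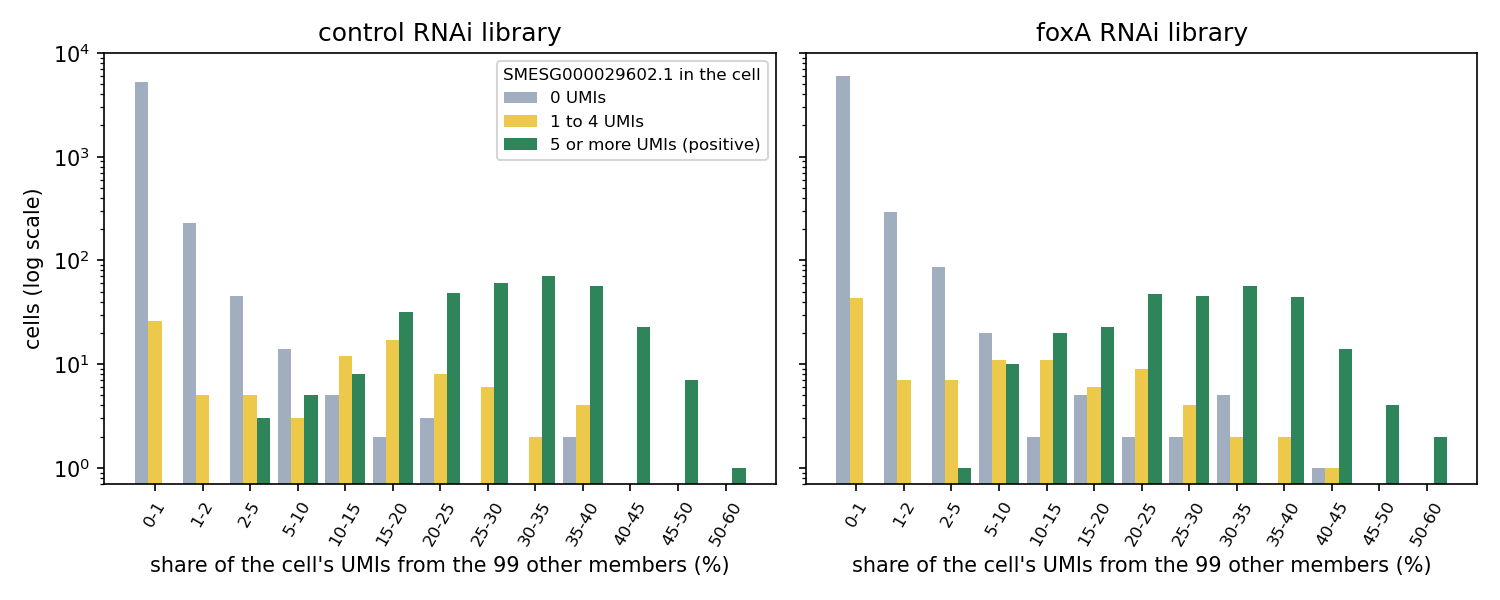
Number of cells (log scale) by the share of a cell's UMIs that came from the 99 members other than the marker, in bins of percent, for cells with 0, 1 to 4 and 5 or more UMIs of the marker. Most cells with 0 marker UMIs lie under 1%, most positive cells between 15% and 45%, while 26 control cells and 37 foxA cells without the marker reach 5% or more.

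A few members supplied most of these molecules. In the control library the 10 most abundant members made up 56.5% of the member UMIs of positive cells, the 20 most abundant 74.0%, and the 50 least abundant 6.82%. The corresponding shares of the foxA library, over its own most abundant members, were 53.2%, 73.0% and 6.86%. Of the 10 most abundant of all genes in positive cells, 8 were members in the control and 9 in the foxA library. The levels of members in positive control cells ran from 109 CPM to 30192 CPM with a median of 909 CPM, and 46 members stood at 1000 CPM or more in each library. Because 1 end of each molecule was counted, these levels are per molecule and not scaled by gene length.

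The most abundant member was SMESG000058307.1, with 30192 CPM (29687 to 30704) in positive control cells and 22552 CPM (22143 to 22967) in positive foxA cells. Its neighbour in the feature list, SMESG000058321.1, had 23275 CPM (22832 to 23725) and 16683 CPM (16331 to 17040). SMESG000068743.1 had 29744 CPM (29242 to 30252) and 27527 CPM (27075 to 27985). The intervals of the libraries do not overlap for any of these 3 genes, nor for the marker, which is given next. They cover counting error alone, which is small at such counts. The share of all genes without overlap is not given here. The marker SMESG000029602.1 had 20963 CPM (20542 to 21390) in positive control cells and 22013 CPM (21609 to 22423) in positive foxA cells, levels that the gate on this gene helps to set.

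SMESG000043289.1 stood at 16062 CPM in positive control cells and 13784 CPM in positive foxA cells. SMESG000020501.1 stood at 15631 CPM and 16363 CPM, and SMESG000042787.1 at 14082 CPM and 14438 CPM. These 7 genes were the members above 10000 CPM in both libraries. Next in the control library came SMESG000028420.1 with 9101 CPM and 7823 CPM, SMESG000012171.1 with 8446 CPM and 9664 CPM, and SMESG000076927.1 with 7902 CPM and 7796 CPM. Of these 10 genes, the 2 with the largest difference between the libraries were the neighbours SMESG000058307.1 and SMESG000058321.1.

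The most abundant members were found in nearly every positive cell. SMESG000058307.1, SMESG000058321.1, SMESG000068743.1 and SMESG000028420.1 each had a UMI in 99.7% of positive control cells, whose median depth was 1153 UMIs. Among control cells with 0 marker UMIs, with a median depth of 543 UMIs, they had a UMI in 2.04%, 1.67%, 1.17% and 1.26% of cells. Over all members the share of positive control cells with a UMI ran from 7.94% to 100%, with a median of 58.3%, and the median over members among 0-UMI cells was 0.359%. When cells with at least 400 UMIs were thinned to 400, a positive cell held a median of 40 different members in each library. A cell with 0 marker UMIs held a median of 0 members in each library. Thinning left out 11 positive control cells, 1415 control cells with 0 marker UMIs and 0 foxA cells. Before thinning the medians in positive cells were 60 members in the control and 65 in the foxA library.

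The foxA library, which the rule did not use, showed the same genes enriched in positive cells. All 100 members had a ratio of at least 2 there, from 3.30 to 2202 with a median of 41.5, whereas 3.35% of the 12061 genes with at least 50 UMIs in that library reached a ratio of 2. In the control library, where the rule chose the members, 2.99% of genes did. Of the members, 4 had fewer than 50 UMIs in the whole foxA library. When the rule was applied to the foxA library, 90 of the 100 genes chosen were the same, a share of 90% of each list. The 10 members left out all ranked among the lowest 25 of the control list.

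The genes at the head of the list kept their high ratios in the foxA library. The ratio of the marker was 2097 in the control and 2202 in the foxA library, which is set by the gate itself. SMESG000068743.1 had a ratio of 319 and 263, SMESG000029612.1 of 295 and 369, SMESG000076927.1 of 276 and 218, and SMESG000058321.1 of 251 and 290. Across the 100 members, CPM in positive cells correlated between the libraries with a Spearman's rho of 0.97 and a Pearson's r of 0.97 on the log10 scale. These values are over genes, which are not independent replicates, and the genes share the same cells and depth.

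**Figure D2:**
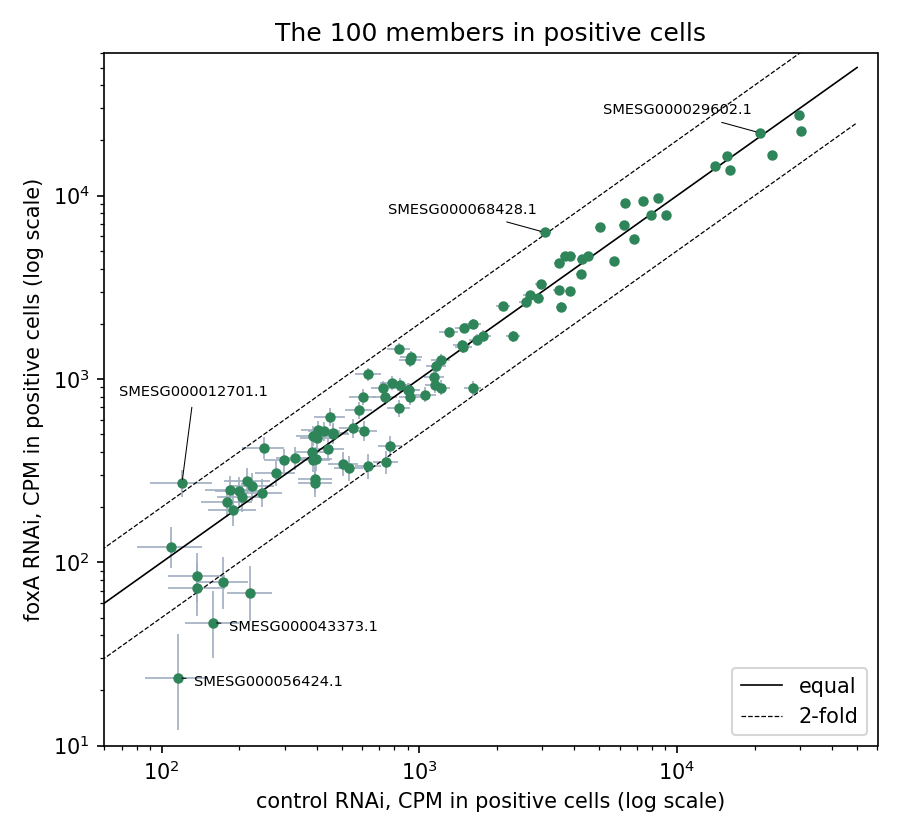
Level of each of the 100 members in positive cells of the control library (horizontal axis, CPM, log scale) and of the foxA library (vertical axis, CPM, log scale), with exact Poisson 95% intervals as bars. Most points lie near the line of equal level, and the members beyond the dashed 2-fold lines include SMESG000012701.1 and SMESG000068428.1 above and SMESG000056424.1 and SMESG000043373.1 below.

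Within positive cells, most members stood at similar levels in the libraries. On the scale of log2 of (CPM + 1), the median of the members' ratios, foxA over control, was 0.06 (-0.04 to 0.14, from the order of the 100 values), beside a median of 0.06 over all 2429 genes with at least 50 UMIs in positive cells. With TMM factors the members' median was -0.029, so its sign depends on the scaling. Of the members, 79 lay within 0.5 of 0, which is 79% of them, beside 79.5% of all those genes. The ratio was above 0 for 56 members and below 0 for 44. The counting interval lay above 0 for 29 members and below 0 for 31. These counts by sign and by interval are not given here for the 2429 genes, so they do not set members apart from other genes. At least 2-fold higher in the foxA library were 2 of the 100 members, beside 2.63% of the 2429 genes. At least 2-fold lower were 5 of the 100 members, beside 1.32% of those genes. Of these 5, 4 had fewer than 100 UMIs in positive control cells, as had 14 of all members. The remaining 1 had 334. The rule used the control levels, so these low ratios are not independent of it.

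The 2 members with the highest ratio were SMESG000012701.1 and SMESG000068428.1. SMESG000068428.1 had 1383 UMIs in positive control cells, or 3070 CPM (2910 to 3236), and 3230 UMIs in positive foxA cells, or 6305 CPM (6089 to 6526), a log2 ratio of 1.04. It was found in 250 of the 315 positive control cells and 236 of the 267 positive foxA cells. The highest single cell held 34 of its control UMIs and 166 of its foxA UMIs. SMESG000012701.1 was rarer, with 54 UMIs in 25 positive control cells, or 120 CPM (90.04 to 156), and 138 UMIs in 58 positive foxA cells, or 269 CPM (226 to 318), a log2 ratio of 1.16. Up to 12 of its control UMIs and 10 of its foxA UMIs came from a single cell.

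The 2 members with the lowest ratio were SMESG000056424.1 and SMESG000043373.1. SMESG000056424.1 had 52 UMIs in 34 positive control cells, or 115 CPM (86.2 to 151), and 12 UMIs in 10 positive foxA cells, or 23.4 CPM (12.1 to 40.9), a log2 ratio of -2.25. SMESG000043373.1 had 71 UMIs in 63 positive control cells, or 158 CPM (123 to 199), and 24 UMIs in 21 positive foxA cells, or 46.8 CPM (30.0 to 69.7), a log2 ratio of -1.73. Both are among the least abundant members. Among the 47 members with at least 1000 UMIs in positive cells of both libraries together, the log2 ratio ran from -0.85 to 1.04, and 41 of them lay within 0.5 of 0. The share of all genes with that many UMIs that lay within 0.5 is not given here, so this is no trait of members.

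Over whole libraries the members made up a smaller share of the foxA library. They supplied 3.74% (3.72% to 3.76%) of all control UMIs and 2.43% (2.42% to 2.45%) of all foxA UMIs, a log2 ratio of -0.62 (-0.63 to -0.61). For single members the ratio was below 0 for 92 of the 100 over all kept cells, beside 39.6% of the 11477 genes with at least 100 UMIs in both libraries together, a minimum that 99 members met. The median was -0.59 for the members and 0.08 for all those genes. At least 2-fold lower were 17 members, beside 2.33% of genes, and at least 2-fold higher were 0 members, beside 2.26% of genes. The members share their cells, so these counts are not independent of each other. In sums over all cells, fewer positive cells and less member RNA per cell cannot be told apart, so both are given next.

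The positive cells themselves were a smaller part of the foxA library. They were 315 of the 5978 kept cells of the control library, or 5.27% (4.72% to 5.87%). Of the 6781 kept cells of the foxA library they were 267, or 3.94% (3.49% to 4.43%). The log2 ratio of these shares was -0.42 (-0.66 to -0.18). The gate counts UMIs, and the foxA library is deeper. After cells with at least 400 UMIs were thinned to 400 and gated again, the log2 ratio was -0.75 (-1.04 to -0.46). Cells under 400 UMIs were left out, 1438 in the control and 0 in the foxA library, so unequal parts of the libraries were kept. Of the 1438 control cells left out, 11 had been positive before thinning. The part that leaving out these cells has in the ratio was not tested. Among cells with at least 500 genes the log2 ratio was -1.09, and the ratio of the members' whole-library share was -1.01. That filter also keeps unequal parts of the libraries. When cells were counted by a share of at least 5% from the 99 other members, without regard to the marker, they numbered 390, or 6.52% of cells in the control library (5.91% to 7.18%). In the foxA library there were 349, or 5.15% (4.63% to 5.70%), which gave a log2 ratio of -0.34 (-0.55 to -0.13). This count was chosen after seeing the data.

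Relative to other cells, positive cells held fewer UMIs in the foxA library, although their own UMI numbers were higher there. Their mean of UMIs was 1.99 times the mean of all kept cells in the control and 1.66 times in the foxA library. By medians, a positive control cell had 1153 UMIs against 543 in cells with 0 marker UMIs, a ratio of 2.12, and a positive foxA cell had 1600 UMIs against 882, a ratio of 1.81. Positive cells held 10.5% of all control UMIs and 6.53% of all foxA UMIs, a log2 ratio of -0.68 (-0.69 to -0.68). Under 400 UMIs there were 1438 kept cells in the control and 0 in the foxA library. The part that the gap in depth between the libraries has in these UMI ratios was not tested.

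The share of members was graded with the level of the marker. In the control library it was 21.7% in the 58 cells with 5 to 9 marker UMIs, 25.8% in the 83 cells with 10 to 19, 32.0% in the 121 cells with 20 to 49 and 37.8% in the 53 cells with 50 or more. In the foxA library it was 20.8% in 40 cells, 22.5% in 60 cells, 29.8% in 89 cells and 36.9% in 78 cells. Without the marker's own UMIs the order was the same, from 20.9% to 34.4% in the control library and from 20.2% to 33.3% in the foxA library. Cells with more marker UMIs were deeper, with medians of 716 UMIs and 2143 UMIs in the lowest and highest of these control groups, and 1086.5 UMIs and 2411 UMIs in those of the foxA library.

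**Figure D3:**
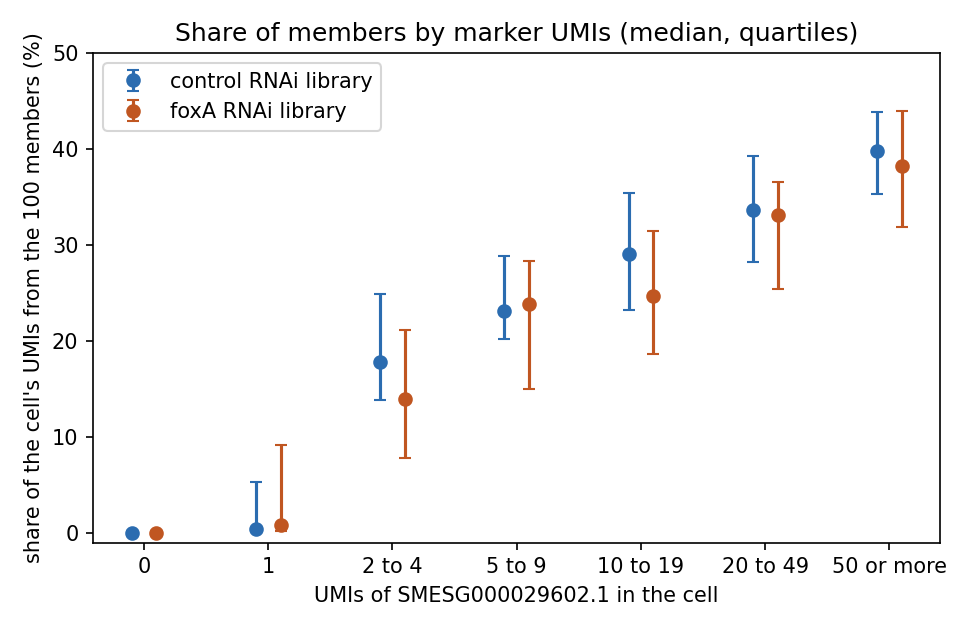
Share of a cell's UMIs that came from the 100 members (percent), by the number of marker UMIs in the cell, as the median over cells (points) and the quartiles (bars) in each library. The median is 0% without marker UMIs and reaches 39.8% in control cells and 38.3% in foxA cells with 50 or more.

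Members differed in how steep this gradient was. SMESG000068743.1 went from 15567 CPM in control cells with 5 to 9 marker UMIs to 41047 CPM in those with 50 or more. In the same groups SMESG000043289.1 stood at 13462 CPM and 15675 CPM, and SMESG000020501.1 at 14486 CPM and 14444 CPM. In the foxA groups SMESG000068743.1 stood at 20301 CPM and 30610 CPM, and SMESG000043289.1 at 11874 CPM and 14076 CPM. There SMESG000020501.1 stood at 12661 CPM and 19774 CPM. The contrast between SMESG000068743.1 and SMESG000020501.1 was thus found in the control library only. SMESG000058307.1 stood at 24007 CPM and 33109 CPM in the control library and at 14374 CPM and 29032 CPM in the foxA library. Its levels in the libraries were thus closest in the cells richest in the marker. SMESG000068428.1 stood at 1468 CPM and 4162 CPM in the control groups and at 6439 CPM and 5768 CPM in the foxA groups, so among positive cells the libraries were furthest apart where marker UMIs were fewest.

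Some members varied together from positive cell to positive cell. Among the 30 most abundant members there were 435 pairs, with a median Pearson's r of 0.23 over 315 control cells and of 0.29 over 267 foxA cells, on log2 values scaled to 10000 UMIs per cell and increased by 1. The highest was that of SMESG000058307.1 with SMESG000058321.1, at 0.79 in the control and 0.81 in the foxA library. Next in the control library were SMESG000068743.1 with SMESG000076927.1, at 0.64 and 0.78, the marker with SMESG000029612.1, at 0.58 and 0.70, and SMESG000068743.1 with SMESG000068428.1, at 0.56 and 0.59. The last of these was 7th in the foxA library, where SMESG000058321.1 with SMESG000042787.1 was 4th, at 0.53 and 0.68. An r above 0.5 was found for 6 pairs in the control and 18 in the foxA library, of which 5 were the same pairs. These are descriptions over cells of 1 library, which share their depth, and most other pairs were weak.

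Members tended to stand near each other in the list of features. Of the 100 members, 45 lay within 5 rows of another member and 24 were directly next to 1, whereas 3.45% of the other 10424 genes with at least 50 UMIs lay within 5 rows of a member and 0.739% directly next to 1. The 45 formed 16 runs of 2 to 4 members. The marker stood with SMESG000029612.1 and SMESG000029594.1, SMESG000058307.1 with SMESG000058321.1 and SMESG000058274.1, and SMESG000068743.1 with SMESG000068428.1. A run of 4 held SMESG000043289.1, SMESG000043280.1, SMESG000043278.1 and SMESG000043277.1, with log2 ratios within positive cells of -0.22, -0.35, -0.55 and -0.52. In the run of SMESG000058307.1 the values were -0.42, -0.48 and -0.54. In another run, SMESG000051953.1, SMESG000051964.1, SMESG000051986.1 and SMESG000052008.1 had 0.35, 0.42, 0.76 and 0.14. Other runs were mixed in sign, such as SMESG000068743.1 at -0.11 beside SMESG000068428.1 at 1.04. What the order of features stands for is not stated in the files, and whether members of a run are similar enough to share reads was not tested, so the level of each gene in a run is uncertain.

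Members differed in how far they were confined to positive cells. In the control library 39 members had at least 90% of their UMIs in positive cells, 43 had 80% to 90% and 18 had less. The most confined were SMESG000012701.1 with 98.2%, the marker with 98.2% and SMESG000029612.1 with 96.3%. The least confined were SMESG000060403.1 with 54.9%, SMESG000064381.1 with 60.1% and SMESG000033033.1 with 60.6%. In the foxA library 13 members had at least 90%. There the 3 most confined control members had 70.8%, 98.6% and 97.9%, in the same order, and the 3 least confined had 40.1%, 42.3% and 47.1%. The rule chose members by their control levels in positive cells and in cells without the marker. The control values are thus not independent of the rule, while the foxA values were not used by it. Positive cells were also a smaller part of all cells in the foxA library. What part either has in the fall from 39 to 13 members was not tested. Such counts over all tested genes are not given here. The control value of SMESG000012701.1 rests on 55 UMIs.

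Cells without the marker held few member UMIs, but not none. In the 5575 control cells with 0 marker UMIs members made up 0.274% of UMIs (0.269% to 0.2797%), and in the 6411 foxA cells 0.314% (0.310% to 0.318%). No member was found in 62.1% of these control cells and 55.9% of these foxA cells, whose median depths were 543 and 882 UMIs. Part of the remainder lay in a few cells. In the control library 26 cells without the marker had at least 5% of their UMIs from members and held 32.4% of the member UMIs of all cells with 0 marker UMIs. Of such cells the foxA library had 37, which held 35.2%. Among them, 14 control cells and 20 foxA cells had 5% to 10% from members, against 5 and 10 of the positive cells by the 99 members other than the marker. With these cells set aside, which was decided after seeing the data, members made up 0.187% (0.182% to 0.191%) of the remaining 5549 control cells' UMIs and 0.205% (0.202% to 0.208%) of the remaining 6374 foxA cells' UMIs.

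The cells that held members but not the marker differed in composition from positive cells. In the 26 control cells SMESG000058307.1 stood at 15399 CPM, SMESG000043289.1 at 12411 CPM and SMESG000068743.1 at 12135 CPM. In the 37 foxA cells they stood at 5676 CPM, 13182 CPM and 11091 CPM. SMESG000043289.1, at 16062 CPM and 13784 CPM in positive cells, was thus nearer to its positive level than the other 2 genes. SMESG000029612.1, which stands near the marker in the feature list, had 138 CPM from 3 UMIs in the 26 control cells. In the 37 foxA cells it had 18.7 CPM from 1 UMI, against 4515 CPM and 4702 CPM in positive cells. These cells were chosen for having 0 UMIs of the marker. This gene varied with the marker across positive cells, so its low level is not independent of that choice. In cells with 1 to 4 marker UMIs members made up 11.5% of UMIs in the control library, over 88 cells, and 9.27% in the foxA library, where these were 1.52% of cells. They were a mixed class, in which 49 control cells and 36 foxA cells had at least 10% from members.

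In the remaining cells 1 member stood out. SMESG000060403.1 supplied 27.3% of all member UMIs of the control cells without the marker and with under 5% from members, and 40.3% of those of the foxA cells. It stood at 510 CPM in these control cells and 827 CPM in these foxA cells, against 6286 CPM and 9148 CPM in positive cells. Among all cells with 0 marker UMIs it was found in 15.6% of control cells and 20.9% of foxA cells. The next most widespread were SMESG000051953.1, in 7.05% and 8.10% of cells, and SMESG000051964.1, in 5.79% and 6.91%. Without SMESG000060403.1 the share of members in the remaining cells was 0.136% (0.132% to 0.139%) among control cells and 0.122% (0.120% to 0.125%) among foxA cells. The direction of the difference between the libraries thus turned when this gene was left out.

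Members differed in the level of their traces relative to their level in positive cells. For 41 members with at least 50 UMIs in these remaining cells of both libraries together, the level there was taken per 1000 of the level in positive cells. This value ran from 0.441 for SMESG000068743.1 to 81.2 for SMESG000060403.1 in the control library, with a median of 9.56. Its range in the foxA library was from 0.438 to 90.4 for the same genes, with a median of 9.88. SMESG000051953.1 had values of 28.2 and 21.7, SMESG000042787.1 of 6.45 and 5.01, and SMESG000058307.1 of 1.05 and 0.982. The minimum of 50 UMIs left out members with low traces, such as SMESG000076927.1 with 12 and 25 UMIs in these cells, so the lower end of this range is set in part by the minimum. At least 2-fold higher in these cells of the foxA library was 1 of the 41 members, beside 2.49% of 12942 genes, and at least 2-fold lower were 0 of 41, beside 3.07%.

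The traces also depended on the kind of cell. Cells were gated by at least 5 UMIs of other marker genes, leaving out those that were positive here, and gates of at least 50 cells were used. Members made up 0.854% (0.819% to 0.891%) of UMIs in 267 control cells with SMESG000024991.1 and 1.15% (1.12% to 1.19%) in 278 such foxA cells. They made up 0.112% (0.103% to 0.123%) in 361 control cells with SMESG000036375.1 and 0.0925% (0.0878% to 0.0974%) in 964 such foxA cells. In cells with SMESG000019976.1 they made up 0.0477% (0.0330% to 0.0666%) and 0.0463% (0.0296% to 0.0688%). The lowest share of any gate used was 0.0208% (0.0121% to 0.0332%), in 52 foxA cells with SMESG000075928.1. In 89 control cells with SMESG000043649.1 the share was 0.130% (0.105% to 0.160%). In the foxA library 0 of 6781 cells had at least 5 UMIs of that gene, which allows a share of up to 0.0442%, taken as 3 counts of the total.

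**Figure D4:**
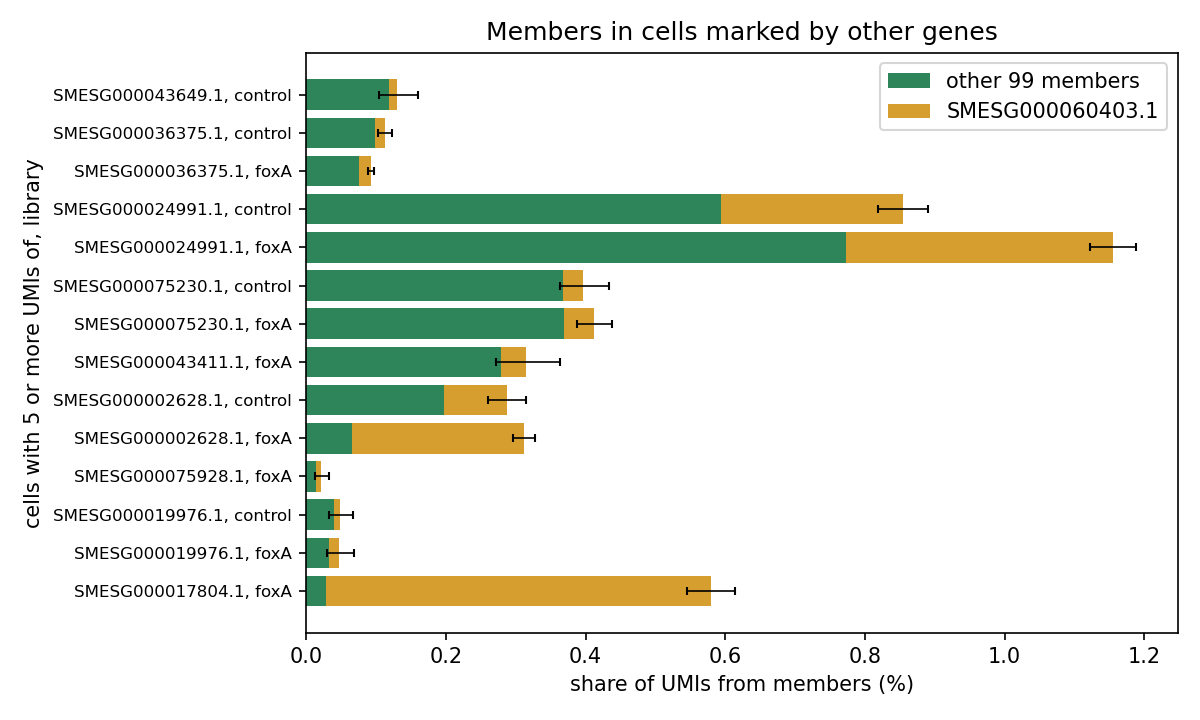
Share of UMIs that came from members (percent, with exact 95% intervals of counting error as bars) in cells with 5 or more UMIs of other marker genes, split into SMESG000060403.1 and the other 99 members, in each library. The share is highest, at 1.15%, in foxA cells with SMESG000024991.1, and in foxA cells with SMESG000017804.1 nearly all of it comes from SMESG000060403.1.

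SMESG000060403.1 was abundant in several of these kinds of cell. It stood at 2606 CPM in control cells with SMESG000024991.1 and 3816 CPM in such foxA cells. In the same cells SMESG000051953.1 stood at 2042 CPM and 2455 CPM, and SMESG000051964.1 at 1285 CPM and 1625 CPM, which were the highest levels of the latter 2 members in any gate used. In cells with SMESG000002628.1, SMESG000060403.1 stood at 896 CPM in 135 control cells and 2461 CPM in 317 foxA cells, whereas the other 99 members made up 0.197% (0.176% to 0.221%) and 0.0653% (0.0585% to 0.0727%) of UMIs. In 114 foxA cells with SMESG000017804.1 it stood at 5509 CPM, from 1075 UMIs, and the other 99 members made up 0.0282% (0.0212% to 0.0367%). The 4 control cells with that gene were too few to describe. SMESG000043289.1 stood at 426 CPM in 193 control cells and 693 CPM in 258 foxA cells with SMESG000075230.1.

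Few positive cells had at least 5 UMIs of another marker gene. Of the positive control cells, 5 had at least 5 UMIs of SMESG000036375.1, 3 of SMESG000024991.1 and 5 of SMESG000002628.1. Of the positive foxA cells the numbers were 2, 6 and 10. For SMESG000043649.1 and SMESG000019976.1 there were 2 positive control cells each, and for SMESG000075230.1 there was 1. The foxA library had 0 for each of these. Positive cells with at least 2 UMIs of any of the 10 other marker genes were then left out. The number of cells this removed is not given here. In the rest, members made up 34.1% of the UMIs of positive control cells and 31.9% of those of positive foxA cells, a log2 ratio of -0.10.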

How the data were processed

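Cells of trunks were profiled in 1 control RNAi and 1 foxA RNAi library. The deposited values were UMI counts per gene and cell barcode, not normalized. Per the file headers the matrices come from Cell Ranger 6.1.2, while the submitters' processing notes name Cell Ranger 7. Before fragmentation, cDNA was cut with CRISPR and 30 guides against 16S sequence and amplified for 10 more cycles, per the labels' protocols. The genome build, annotation and cell calling are not given in the sources used here. The deposited libraries held 6056 cells with 4329019 UMIs and 6798 cells with 7852495 UMIs. Cells with fewer than 200 genes were removed, 78 and 17. No doublet caller was run and no doublets were removed.

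Shares have Clopper-Pearson intervals, sums exact Poisson intervals and ratios exact conditional binomial intervals. The interval of the members' median ratio comes from the order of the members' values, which are not independent of each other. Since cells are not replicates, no p-value was computed. Log2 ratios used CPM + 1 and a 2-fold threshold. Scripts were tested on simulated data (Python 3.11.15, scipy 1.17.1, edgeR 4.0.16 for TMM factors). The genes to name were the marker, the 10 most abundant members, the 5 with the highest ratio, ranks around the end of the list, the 2 highest and 2 lowest library ratios, the 3 most and 3 least confined, and the 3 found in most 0-UMI control cells. The members, marker genes and lists were chosen with earlier results of these data known. Levels of further members in pairs, runs, bins and gates were chosen after their values were seen.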

Additional observations from a re-analysis of the deposited data

How the results depend on the processing

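No paired analysis was possible because neither condition has a second library, so leaving 1 out was not possible either. Changes were judged against counting error, which is small, so most shares moved beyond it. The members' share of UMIs in positive cells, control then foxA, was 29.7% and 29.1% with a gate of at least 2 UMIs, 32.3% and 31.4% with at least 10, 30.6% and 30.2% in cells with at least 500 genes, 31.7% and 30.0% after thinning, 29.0% and 28.1% without the marker, and 19.04% and 20.1% without the 5 most abundant members. With members chosen in the foxA library it was 30.4% and 29.7%, with a pseudocount of 1 CPM 30.3% and 29.3%, among genes with at least 200 UMIs 32.4% and 31.8%, with the top 50 members 26.6% and 24.99%, without cells carrying other marker genes 34.1% and 31.9%, and as a mean over cells 31.5% and 30.2%. Shares after thinning, here and for cells without the marker, are of cells gated before it. Cells without the marker held 0.255% and 0.284% after thinning, and 0.232% and 0.277% without the 5 most abundant. They held 0.233% and 0.240% with members chosen in the foxA library, and 0.207% and 0.215% with a pseudocount of 1 CPM. Among genes with at least 200 UMIs the values were 0.4996% and 0.526%, with the top 50 0.119% and 0.126%, and as a mean over cells 0.243% and 0.286%. Without cells of at least 5% from members (chosen after seeing the data) they were 0.187% and 0.205%. In cells with at least 500 genes they were 0.322% and 0.317%, the only setting listed here in which the control value was the higher.

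The log2 ratio of the share in positive cells was -0.077 after thinning, -0.017 with at least 500 genes, -0.047 with a pseudocount of 1 CPM, -0.087 with the top 50, -0.10 without cells carrying other marker genes, -0.063 as a mean over cells, and turned to 0.078 without the 5 most abundant. The cause was not tested. The ratio over all kept cells was -0.69 after thinning, -1.01 with at least 500 genes, -0.48 without the 5 most abundant, -0.64 with members chosen in the foxA library, -0.66 with a pseudocount of 1 CPM, -0.58 among genes with at least 200 UMIs, -0.72 with the top 50 and -0.38 as a mean over cells. It stayed below 0 in all of these. The ratio of the share of positive cells was -0.75 after thinning, with cells gated again on the thinned counts, and -1.09 with at least 500 genes. Thinning left out 1438 control cells, those under 400 UMIs, and 0 foxA cells, so both settings keep unequal parts of the libraries. With the top 50, 50 members had a ratio of at least 2 in the foxA library, which is all of them. The members' median ratio within positive cells stayed within its interval in all 14 alternatives, from -0.029 with TMM factors to 0.12. That interval is taken over genes and is not one of counting error. With TMM factors the median of all genes was -0.019. The value of 0.12 was that of members chosen in the foxA library, a choice that is not independent of the ratio. Of 108 alternative values, 49 stayed within the error, 58 moved and 1 reversed. The depth limits the rarest members, with as few as 12 UMIs in positive foxA cells.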

Other observations

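Among the 41 members with enough UMIs in cells without the marker, the largest difference in traces was that of SMESG000062429.1, singled out after its values were seen. In cells without the marker and with under 5% from members it stood at 4.29 CPM, from 16 UMIs, in the control library and 18.2 CPM, from 130 UMIs, in the foxA library. In positive cells it stood at 448 CPM (389 to 515) and 619 CPM (552 to 691). Where in the remaining cells these UMIs lie was not analysed here.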
